A study of Mus musculus with 10 samples.

Results

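The immunoglobulin genes and the genes that plasma cells use to make and export antibody were followed in the terminal ileum of stressed and control mice. Members were the probe sets whose gene symbol on the platform begins with Igh, Igk or Igl followed by a letter or digit, without Ighmbp2 and Igll1, and the probe sets of 10 helper genes (Jchain, Mzb1, Pou2af1, Derl3, Tnfrsf17, Tnfrsf13b, Prdm1, Irf4, Sdc1 and Pigr). This gave 66 of 45037 probe sets, 51 for immunoglobulin genes and 15 for helper genes. Of the 66, 13 name several immunoglobulin genes. The 2 probe sets of Iglon5, a neural adhesion gene that shares the first letters only, were left out. A further 5 probe sets carry the symbols Igk or Igk-V21, which the letter rule does not take, and their values are given apart.

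The study compared 5 control mice with 5 mice that went through subchronic mild social defeat. All were male C57BL/6JJmsSlc mice of 7 weeks, kept singly for a week of habituation and fed AIN-93G diet, and no mouse carried an engineered allele per the labels. Stressed mice met an aggressive, retired Slc:ICR male each afternoon for 10 days, with contact of 5 min on day 1 that became 0.5 min shorter each day, down to 0.5 min on day 10. Ileum was taken after 3 h of fasting, and 100 ng of its RNA was labelled for 1 Affymetrix array per mouse. Values are the authors' log2 values per probe set from RMA (robust multi-array average), and a difference is stressed minus control on that scale with its standard error (SE) from limma. The labels do not say how mice were shared out over cages, days or litters.

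An antibody is built of heavy chains (Igh) and light chains (Igk for kappa, Igl for lambda). Each has a variable segment that meets the antigen and a constant part, and the constant part of the heavy chain sets the class. Plasma cells of the gut wall make mostly IgA, whose heavy chain is Igha; Jchain links its dimers, and the epithelial receptor Pigr carries them into the lumen. Each B cell lineage uses 1 heavy and 1 light variable segment, so the segments in a tissue mirror the lineages it holds. In whole tissue, fewer plasma cells and less RNA per plasma cell cannot be told apart.

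Several arrays stood apart on probe sets outside the members. The array of control mouse 1 was known from earlier results of these data to stand apart, so leaving it out was not decided blind. Car1, an enzyme of the large intestine, was at 14.17 in control mouse 1 and 13.32 in stressed mouse 4, against 4.95 to 7.42 in the other 8 mice. Fabp6, the bile acid carrier of ileal enterocytes, was at 7.88 in control mouse 1 and at 13.88 to 14.10 in the other 9 mice, so the defining ileal transcript was low in that mouse alone. The mean of 10 measured B cell genes was 6.08 in control mouse 5 and 4.60 to 5.12 in the other mice, and the log2 ratio of 3' to 5' probe sets of the controls for actin and Gapdh (their mean), a sign of RNA quality, was 1.13 in stressed mouse 1 and 0.445 to 0.704 in the others. Results are given with all 10 arrays and with the 9 arrays left when control mouse 1 is taken out (called 9 arrays from here on).

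The mean signal of the immunoglobulin probe sets, and that of the helper probe sets, was lower in each stressed mouse than in each of control mice 2 to 5, and lowest in control mouse 1. With 9 arrays the mean of stressed mice was the lower one in 50 of 51 immunoglobulin and 10 of 15 helper probe sets, and the 5 helper probe sets that were higher were all 4 of Sdc1 and 1 of Irf4. The mean of the 32 tested immunoglobulin probe sets was 8.88, 8.24, 7.92 and 8.17 in control mice 2 to 5, 6.94 in control mouse 1, and 7.55, 7.59, 7.54, 7.50 and 7.29 in stressed mice 1 to 5. The ranges of controls 2 to 5 and of stressed mice did not meet, and control mouse 1 was the lowest of all. The mean of the 15 helper probe sets was 8.28, 7.83, 7.83 and 7.86 in controls 2 to 5, 7.17 in control mouse 1, and 7.46 to 7.64 in stressed mice. In control mouse 2 the largest number of members was at its highest, 36 of 66, and in control mouse 1 the largest number was at its lowest, 28 of 66. Over all 45037 probe sets, control mouse 1 was the lowest in 17.2%. The share in which control mouse 2 was the highest was not computed, so its count of 36 has no background.

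Of the 66 members, 47 passed the filter on low values (a mean over the 10 arrays above 4.15) and were tested among 27022 probe sets. With all 10 arrays 0 of the 47 were called, a call being a Benjamini-Hochberg adjusted p from limma below 0.05, and 0.0% of all tested probe sets were called in either direction. At an unadjusted p under 0.05, 7 members were lower and 1 was higher, where 3.39% of all tested probe sets were lower and 4.08% higher. With 9 arrays, 3 of the 47 fell and 0 rose, against 0.163% of all tested probe sets lower and 0.0962% higher. At an unadjusted p under 0.05 in that comparison, 29 of the 47 were lower and 1 was higher, against 5.77% and 10.4%. The median difference of the tested members was -0.34 with 10 arrays and -0.58 with 9 arrays, where the medians over all tested probe sets were 0.01 and 0.02. The count of 3 was 0 when stressed mouse 1, 3, 4 or 5 was also taken out, 1 without control mouse 2, 2 without control mouse 3, 4 or 5, and 3 without stressed mouse 2.

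Counts over all 66 members, with no filter, had the same direction. The mean of stressed mice was below that of controls in 59 members with 10 arrays and in 60 with 9 arrays, where 53.1% and 51.7% of all probe sets were lower. In 23 members every stressed mouse lay below each of controls 2 to 5, and in 0 members every stressed mouse lay above them, against 2.27% and 2.66% of all probe sets. With 10 arrays 1 member lay below (0.91% of all probe sets) and 0 lay above (0.795%). The 1 was an Ighm probe set (1425385_a_at) under the filter floor, whose closest control and stressed mice were both at 3.52. The probe sets share genes and related sequence, so they are not independent of one another.

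**Figure D1:**
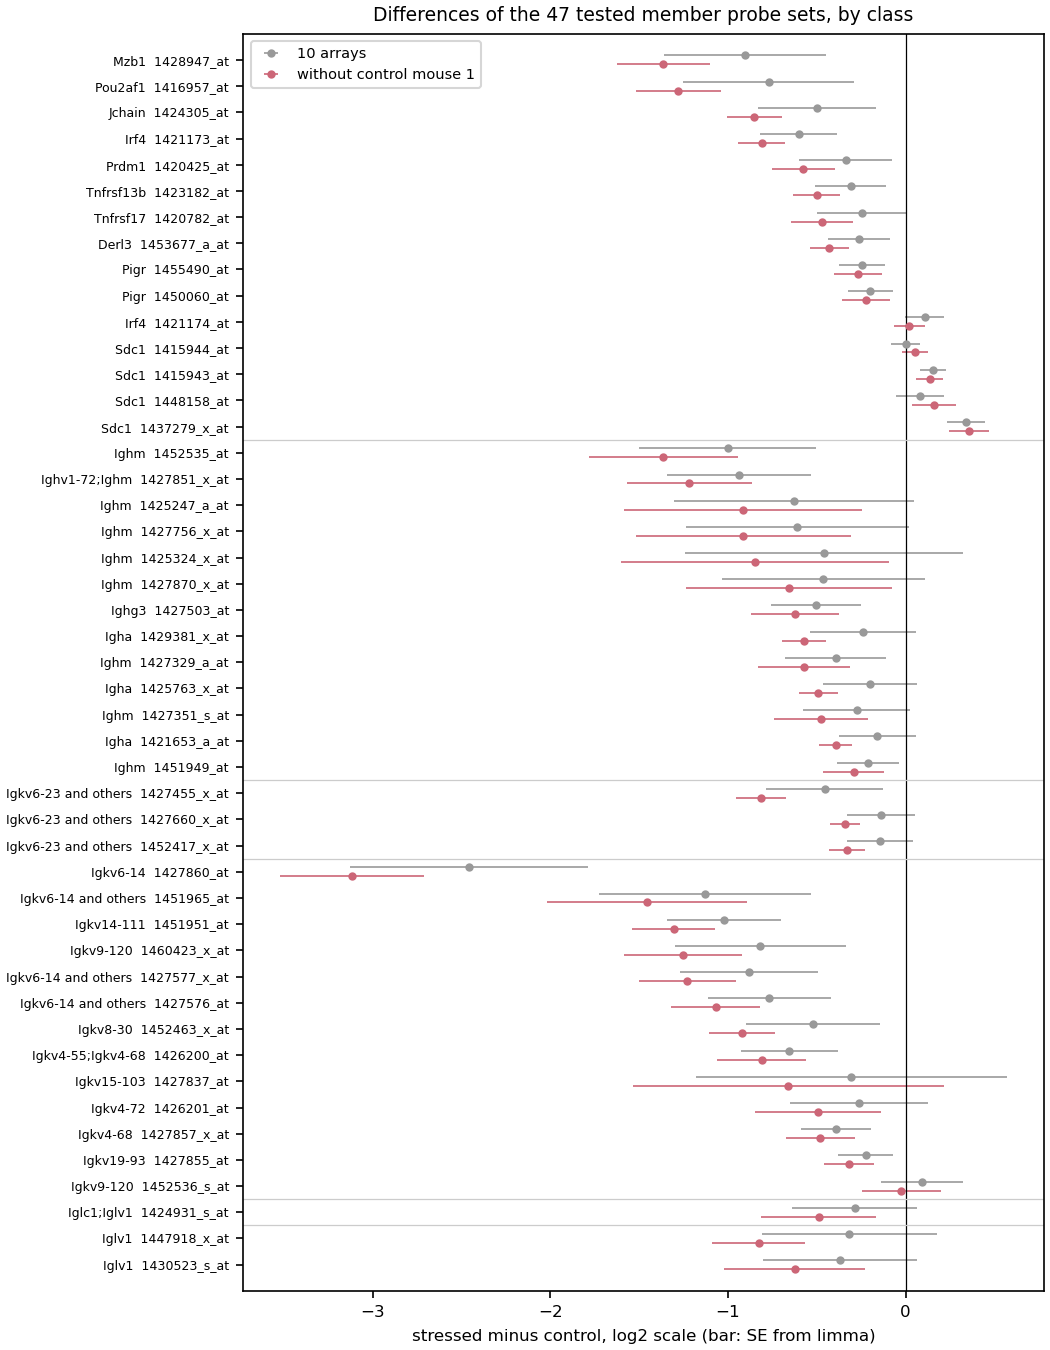
Difference between stressed and control mice (x axis, log2 scale) for each of the 47 tested members (y axis, gene and probe set), with 10 arrays in grey and with 9 arrays in red; bars are the SE from limma and lines part the classes (helper genes first, then heavy, kappa and lambda chains). Immunoglobulin points with 9 arrays run from -3.12 to -0.02, and the 4 Sdc1 probe sets lie at 0.05 to 0.36.

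Igha, the heavy chain of IgA, was measured by 3 probe sets, and each was lower in all 5 stressed mice than in controls 2 to 5. On 1421653_a_at the controls 2 to 5 were at 13.96, 13.83, 13.68 and 13.77, the stressed mice at 13.31, 13.48, 13.63, 13.42 and 13.25, and control mouse 1 at 12.63. Control mouse 1 was thus below every stressed mouse, and stressed mouse 3 came close to control mouse 4. The differences of the 3 probe sets with 9 arrays were -0.39 ± 0.10 (SE), -0.49 ± 0.11 (SE) and -0.57 ± 0.12 (SE), with limma adjusted p of 0.106, 0.0915 and 0.0846. With 10 arrays they were -0.16 ± 0.22 (SE), -0.20 ± 0.26 (SE) and -0.24 ± 0.30 (SE). The values lie near the top of the table, whose highest value is 14.37.

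All 11 probe sets annotated to Ighm, the heavy chain of IgM, were lower in mean in stressed mice in both comparisons, and 2 of them, both under the floor, had no overlap with 9 arrays. Several of the others were high in single mice of either group (picked after their values were seen). Of the 11 probe sets 8 were tested, and 0 passed the threshold in limma in either comparison, with adjusted p from 0.168 to 0.608 with 9 arrays. On 1425247_a_at control mice 2 and 3 were at 8.43 and 8.05 and stressed mouse 1 at 8.26, while the other 7 mice were at 5.07 to 6.28. The same 3 mice were the highest on 1425324_x_at, 1427756_x_at and 1427870_x_at, so the groups overlapped there. On 1427351_s_at control mouse 5 was the highest at 9.28, followed by control mouse 2 at 8.63, and the other 8 mice were at 7.43 to 8.38. Control mouse 5 was also highest on 1427329_a_at, at 7.89. The groups overlapped on 1451949_at, which differed by -0.29 ± 0.17 (SE, limma adjusted p = 0.421) with 9 arrays. Probe sets of related segments can take up each other's transcripts, so the gene behind each pattern is uncertain.

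The Ighm probe set with the largest difference was 1452535_at. Control mice 1 to 5 were at 5.73, 8.82, 6.24, 8.11 and 6.98, and stressed mice at 5.75, 6.53, 6.03, 6.09 and 6.48. Control mice 2 and 4 stood above all others and control mouse 3 lay among the stressed mice. The difference was -1.001 ± 0.499 (SE) with 10 arrays and -1.36 ± 0.42 (SE) with 9 arrays, with limma adjusted p of 0.695 and 0.168. A probe set that names both Ighv1-72 and Ighm (1427851_x_at) had the values 5.24, 6.88, 6.06, 7.31 and 6.29 in controls and 4.54, 6.201, 6.07, 4.92 and 5.37 in stressed mice. It differed by -1.22 ± 0.35 (SE) with 9 arrays (limma adjusted p = 0.149), and the groups overlapped.

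Ighg3, the heavy chain of the IgG3 class, was tested on 1 of its 4 own probe sets. On 1427503_at control mice 1 to 5 were at 4.76, 4.93, 5.08, 4.96 and 6.34, and stressed mice at 4.58, 4.76, 4.74, 4.55 and 4.92. Control mouse 5, the mouse with high B cell genes, stood far above the rest. The difference was -0.62 ± 0.25 (SE) with 9 arrays (limma adjusted p = 0.259). The 3 other Ighg3 probe sets, the 3 that name Ighv14-2 with Ighg3 and Ighm, and the Ighv14-2 probe set had means under the floor. On the last of these control mouse 5 was at 5.68 and the other 9 mice at 2.81 to 3.68.

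The kappa light chain showed the widest differences. Of 3 probe sets that include the constant gene Igkc, 1427455_x_at fell with 9 arrays. It was at 11.25 in control mouse 1, at 13.31, 13.14, 12.82 and 12.90 in controls 2 to 5, and at 12.44, 12.37, 12.35, 12.17 and 11.81 in stressed mice. Its difference was -0.81 ± 0.14 (SE, limma adjusted p = 0.0483) with 9 arrays and -0.46 ± 0.33 (SE, adjusted p = 0.782) with 10 arrays. The other 2, 1427660_x_at and 1452417_x_at, differed by -0.34 ± 0.09 (SE) and -0.33 ± 0.10 (SE) with 9 arrays, and the groups met on the second of them. The call of 1427455_x_at was lost in 8 of 9 fits that took out 1 more mouse, at adjusted p from 0.0630 (without control mouse 4) to 0.140 (without stressed mouse 4), and held without stressed mouse 2. These probe sets also name Igkv6-23, Igkv4-53, Igkv8-30 and Igkj1, and their signal cannot be assigned to the constant part alone.

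Igkv6-14, a kappa variable segment, had the largest difference of all members. On 1427860_at control mice 2 to 5 were at 9.32, 7.66, 7.33 and 6.66, control mouse 1 at 4.44, and stressed mice at 4.51, 4.46, 4.81, 4.95 and 4.39. The stressed mice and control mouse 1 thus lay together near the filter floor of 4.15, where a log2 difference can understate the change, and controls 2 to 5 above them with a wide spread. The segment fell by 3.12 ± 0.40 (SE, limma adjusted p = 0.0219) on the log2 scale with 9 arrays, and differed by -2.46 ± 0.67 (SE, adjusted p = 0.429) with 10 arrays. When stressed mouse 1, 3, 4 or 5 was also taken out the difference was -3.09, -3.16, -3.20 or -3.06. The call was then lost, with limma adjusted p of 0.0615, 0.0644, 0.0581 and 0.0593. It held without control mouse 2, 3, 4 or 5 or stressed mouse 2, at limma adjusted p from 0.00343 to 0.0434.

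Other probe sets that name Igkv6-14 along with Igkv6-23 and Igkv8-19 differed less. On 1451965_at control mice 1 to 5 were at 6.11, 9.78, 7.57, 6.53 and 7.07, and stressed mice at 6.43, 5.12, 6.47, 6.91 and 6.49, so the groups overlapped and control mouse 2 stood far above. The probe sets 1427576_at and 1427577_x_at of the same 3 segments differed by -1.07 ± 0.25 (SE) and -1.23 ± 0.27 (SE) with 9 arrays (adjusted p from limma, 0.1001 and 0.0915). On both of them all stressed mice were below controls 2 to 5. A further probe set that names Igkv6-14 with Igkv6-23 (1427799_x_at) had a mean under the floor, and the groups overlapped on it.

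Igkv14-111 (1451951_at) and Igkv8-30 (1452463_x_at) came close to the threshold. Igkv14-111 was at 4.48 in control mouse 1, 5.77, 5.32, 6.56 and 5.91 in controls 2 to 5, and 3.99, 4.69, 4.92, 4.66 and 4.66 in stressed mice. Its difference with 9 arrays was -1.30 ± 0.23 (SE, limma adjusted p = 0.0507), and with 10 arrays -1.02 ± 0.32 (SE, adjusted p = 0.512). Igkv8-30 was at 10.36 in control mouse 1, 13.00, 12.26, 12.06 and 12.14 in controls 2 to 5, and 11.70, 11.55, 11.56, 11.28 and 11.11 in stressed mice. Both segments kept the groups apart once control mouse 1 was left out, and Igkv8-30 differed there by -0.92 ± 0.19 (SE, limma adjusted p = 0.0706).

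Igkv9-120 was read by 3 probe sets that disagreed. On 1460423_x_at controls 2 to 5 were at 10.66, 9.43, 9.59 and 9.43, control mouse 1 at 7.60, and stressed mice at 8.68, 8.74, 9.37, 8.15 and 7.68, a difference of -1.25 ± 0.33 (SE, limma adjusted p = 0.126) with 9 arrays. On 1452536_s_at the difference was -0.02 ± 0.22 (SE), and the third probe set was under the floor. Igkv4-55 with Igkv4-68 (1426200_at) differed by -0.81 ± 0.25 (SE) and Igkv4-68 alone (1427857_x_at) by -0.48 ± 0.19 (SE) with 9 arrays, neither past the threshold in limma (adjusted p = 0.172 and 0.261).

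Igkv15-103 (1427837_at), picked after its values were seen, was at 8.08 in control mouse 2, 9.36 in control mouse 5 and 8.32 in stressed mouse 2, and at 4.61 to 6.19 in the other 7 mice. The SD between mice of the same group, with 9 arrays, had a median of 0.47 over the 13 tested kappa variable probe sets and 0.95 over the 8 tested Ighm probe sets. It was 0.17 over the Igha probe sets, 0.15 over the probe sets with Igkc and 0.16 over all tested probe sets. With control mouse 1 included, the SD of the 5 controls was 0.54 to 0.75 for the Igha probe sets and 0.44 to 0.82 for those with Igkc.

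Lambda light chains, the less used light chain of the mouse, were lower in mean in all 4 of their probe sets, and 0 of 3 tested were called. On 1447918_x_at, annotated to Iglv1, control mice 1 to 5 were at 5.42, 7.74, 7.89, 8.21 and 8.04, and stressed mice at 6.33, 6.89, 7.32, 8.01 and 7.18. Stressed mouse 4 reached the controls, and the difference with 9 arrays was -0.83 ± 0.26 (SE, limma adjusted p = 0.179). On 1430523_s_at the groups overlapped, from 9.19 to 11.61 in stressed mice and from 10.60 to 11.71 in controls 2 to 5. The groups also overlapped on 1424931_s_at, which names Iglc1 and Iglv1. It differed by -0.49 ± 0.33 (SE, limma adjusted p = 0.477) with 9 arrays.

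Of the 5 probe sets with the symbol Igk or Igk-V21, outside the letter rule, 4 were lower in mean with 10 arrays and 5 with 9 arrays. On 1425738_at control mice 2 to 5 were at 7.50, 7.79, 7.87 and 7.54, control mouse 1 at 4.42, and stressed mice at 5.92, 4.91, 5.99, 6.59 and 6.04. With 9 arrays it fell by 1.79 ± 0.26 (SE) at an adjusted p of 0.0324 in limma, and differed by -1.13 ± 0.60 (SE, adjusted p = 0.717) with 10 arrays. Of the 5 probe sets 3 were tested, and this was the 1 called. Its call held in only 3 of 9 fits that took out 1 more mouse, those without control mouse 5 or stressed mouse 2 or 4.

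**Figure D2:**
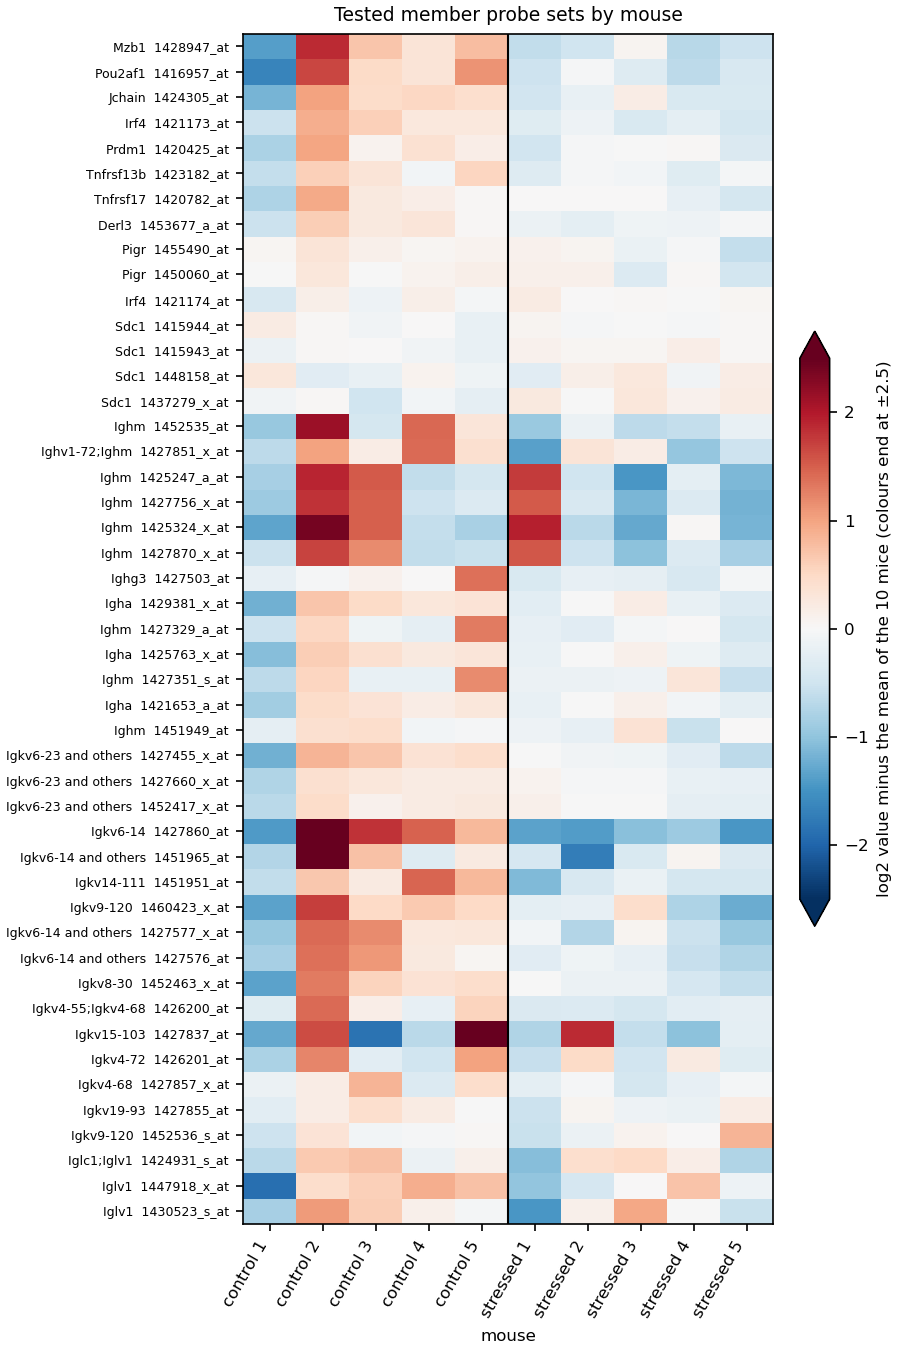
Each row is a tested member and each column a mouse; colour is the log2 value minus the mean of the 10 mice, from blue (low) to red (high), and the vertical line parts controls from stressed mice. Control mouse 2 is red and control mouse 1 blue in most immunoglobulin rows, 4 Ighm rows are high in control mice 2 and 3 and stressed mouse 1, and Igkv15-103 is high in control mice 2 and 5 and stressed mouse 2.

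Among the helpers of antibody assembly, Jchain and Mzb1 separated controls 2 to 5 from stressed mice without passing the threshold. Jchain was at 10.60 in control mouse 1, at 12.78, 12.23, 12.29 and 12.19 in controls 2 to 5, and at 11.29, 11.59, 11.95, 11.39 and 11.39 in stressed mice. Its difference with 9 arrays was -0.85 ± 0.15 (SE), at an adjusted p of 0.0537 in limma. Mzb1, an endoplasmic reticulum protein that helps antibody chains assemble, was at 5.95 in control mouse 1, at 9.19, 8.02, 7.65 and 8.10 in controls 2 to 5, and at 6.72, 6.83, 7.39, 6.63 and 6.80 in stressed mice. Stressed mouse 3 was the highest of the stressed mice for both genes. Mzb1 differed by -1.36 ± 0.26 (SE, limma adjusted p = 0.0622). With 9 arrays and 1 probe set per gene, where 13666 genes are tested, both passed in limma, Jchain at an adjusted p of 0.0342 and Mzb1 at 0.0422. Pou2af1 (0.0372), Igkv14-111 (0.0330) and Igkv8-30 (0.0459) passed in that fit too.

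Derl3, which takes part in removing misfolded proteins from the endoplasmic reticulum, had a smaller difference. Controls 1 to 5 were at 5.60, 6.76, 6.39, 6.44 and 6.17, and stressed mice at 5.99, 5.89, 6.04, 6.01 and 6.11. Control mouse 5 was only just above the highest stressed mouse, and the difference with 9 arrays was -0.43 ± 0.11 (SE, limma adjusted p = 0.121).

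Of the transcription factors, Irf4 fell on 1 of its 2 probe sets. Irf4 is needed for plasma cells to form. On 1421173_at it was at 4.57 in control mouse 1, 6.01, 5.71, 5.37 and 5.36 in controls 2 to 5, and 4.79, 4.97, 4.73, 4.85 and 4.67 in stressed mice, so that control mouse 1 was again the lowest. With 9 arrays this probe set fell by 0.81 ± 0.13 (SE) at an adjusted p of 0.0406 in limma, and differed by -0.60 ± 0.22 (SE, adjusted p = 0.568) with 10 arrays. On 1421174_at, close to the floor at 3.80 to 4.40, the difference was 0.02 ± 0.09 (SE), so the 2 probe sets disagree. The call was lost when control mouse 2 or 3 or stressed mouse 1, 3, 4 or 5 was also taken out, at limma adjusted p from 0.0748 to 0.115, and held without control mouse 4 or 5 or stressed mouse 2.

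Pou2af1, the coactivator that binds octamer factors at immunoglobulin promoters, was at 4.37 in control mouse 1, 7.67, 6.48, 6.32 and 7.13 in controls 2 to 5, and 5.50, 5.98, 5.68, 5.36 and 5.60 in stressed mice. The stressed mice lay between control mouse 1 and the other controls, and the difference with 9 arrays was -1.28 ± 0.24 (SE, limma adjusted p = 0.0570). Prdm1, which encodes the plasma cell factor Blimp-1 and is also expressed outside plasma cells, was at 5.46 in control mouse 1, 7.24, 6.35, 6.64 and 6.43 in controls 2 to 5 and 5.78, 6.22, 6.25, 6.28 and 5.90 in stressed mice. Its groups were only just apart with 9 arrays, and it differed by -0.58 ± 0.18 (SE, limma adjusted p = 0.168).

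The survival receptors Tnfrsf17 (BCMA) and Tnfrsf13b (TACI) were both lower in mean. Tnfrsf17 was at 3.99, 5.71, 5.00, 4.93 and 4.79 in control mice 1 to 5 and at 4.77, 4.77, 4.77, 4.55 and 4.31 in stressed mice. Tnfrsf13b was at 4.46, 5.65, 5.38, 5.00 and 5.59 in controls and at 4.73, 5.03, 4.99, 4.76 and 5.01 in stressed mice. Tnfrsf13b overlapped between the groups at control mouse 4, and Tnfrsf17 did not overlap with 9 arrays. Their differences there were -0.47 ± 0.17 (SE, limma adjusted p = 0.231) and -0.50 ± 0.13 (SE, adjusted p = 0.128).

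Sdc1 and Pigr are also expressed strongly by epithelial cells. Sdc1, the syndecan that marks plasma cells and also coats epithelial cells, was higher in mean on all 4 probe sets in stressed mice, with 0 past the threshold in limma. Its largest difference was on 1437279_x_at, at 9.95, 10.08, 9.55, 9.97 and 9.81 in controls and 10.30, 10.04, 10.33, 10.14 and 10.25 in stressed mice. The groups overlapped by stressed mouse 2 only, and the difference was 0.34 ± 0.11 (SE, limma adjusted p = 0.516) with 10 arrays and 0.36 ± 0.11 (SE, adjusted p = 0.173) with 9 arrays. On 1415944_at it was 0.00 ± 0.08 (SE) with 10 arrays, and its sign turned when array medians were centred. Pigr (1455490_at) was at 12.79, 13.08, 12.87, 12.79 and 12.83 in controls and 12.86, 12.82, 12.58, 12.71 and 12.15 in stressed mice. On the other Pigr probe set (1450060_at) the controls were at 12.53, 12.81, 12.53, 12.61 and 12.67 and the stressed mice at 12.66, 12.65, 12.19, 12.56 and 12.08. Pigr was thus lower in mean on both probe sets, with stressed mouse 5 the lowest and the groups overlapping. With 9 arrays 1450060_at differed by -0.22 ± 0.13 (SE, limma adjusted p = 0.425). On 1455490_at the difference was -0.25 ± 0.13 (SE, limma adjusted p = 0.719) with 10 arrays and -0.27 ± 0.14 (SE, adjusted p = 0.359) with 9 arrays. Control mouse 1 lay within the other controls for this Sdc1 probe set, and for Pigr it was level with the lowest of the others on both probe sets.

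**Figure D3:**
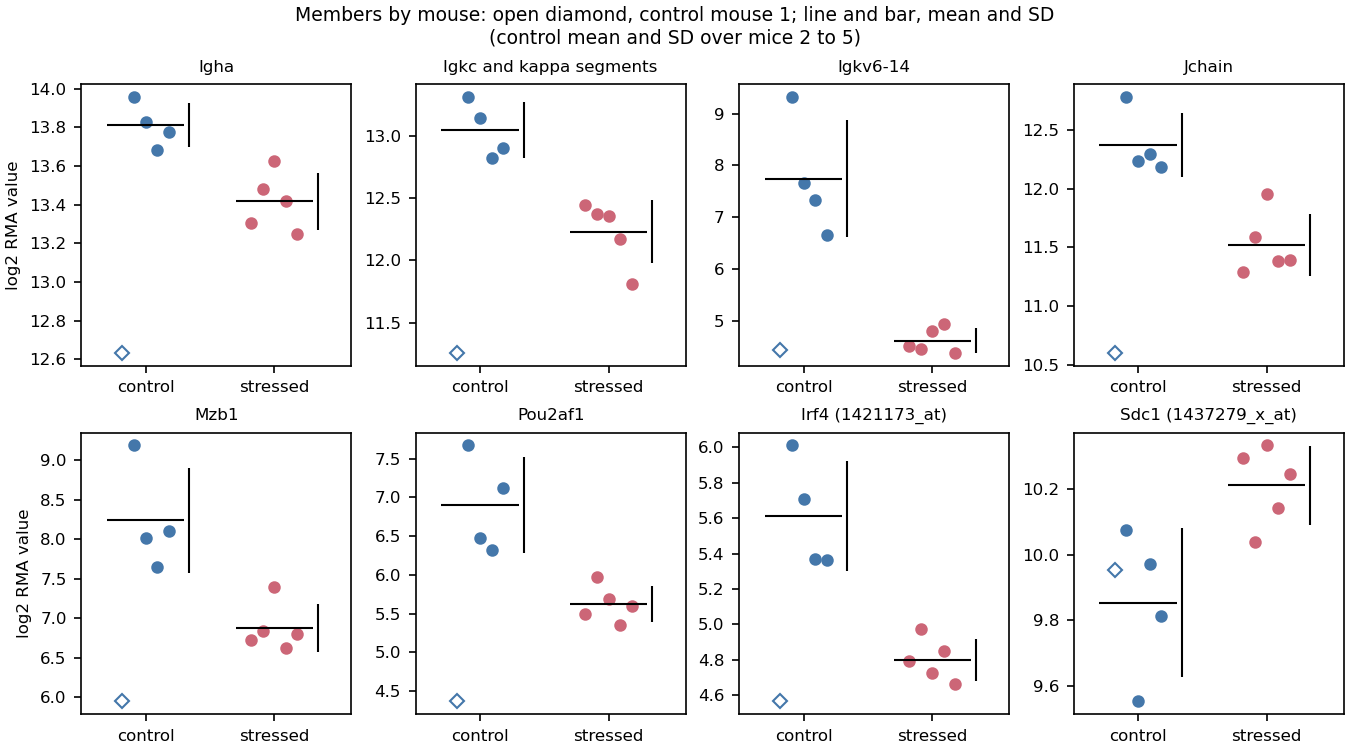
Each panel shows 1 probe set, with the log2 RMA value of each mouse on the y axis for control (blue) and stressed (red) mice; the open diamond is control mouse 1, lines are means and bars SDs, for controls over mice 2 to 5. In 7 panels control mouse 1 lies at or below the stressed mice (Igkv6-14 at 4.44, within their range of 4.39 to 4.95), and in the Sdc1 panel the stressed mice are higher.

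The windows upstream of helper genes were searched for letters bound by factors of this programme. RefSeq windows on GRCm38.p6 were matched for 9 of the 10 helpers, and the 250 bases before the annotated start were read on both strands. The octamer ATGCAAAT, the site of the factors that Pou2af1 joins, was in 0 of the 9 windows and in 1.6% of 32851 windows. The composite element EICE, read by Irf4 with an Ets partner, was in 0 of the 9 and in 2.3% of all. The endoplasmic reticulum stress element (ERSE) was in 1 of the 9, Derl3, and in 0.113% of all. The element TGACGTGG, read by the plasma cell factor Xbp1, was in 1 of the 9, Pou2af1, and in 0.563% of all. A match describes letters only.

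The 2 windows with a match are shown, with the match in capitals, beside that of Jchain, which had no match and whose groups were apart with 9 arrays. Derl3 lies on the + strand at chr10:75893148-75893397, Pou2af1 on the + strand at chr9:51213440-51213689 and Jchain on the - strand at chr5:88527898-88528147, each written 5′ to 3′ toward its start.
Derl3: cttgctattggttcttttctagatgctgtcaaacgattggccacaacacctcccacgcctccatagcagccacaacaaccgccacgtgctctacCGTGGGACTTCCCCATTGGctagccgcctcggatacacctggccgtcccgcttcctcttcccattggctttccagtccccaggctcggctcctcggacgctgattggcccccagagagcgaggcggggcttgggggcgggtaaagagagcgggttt
Pou2af1: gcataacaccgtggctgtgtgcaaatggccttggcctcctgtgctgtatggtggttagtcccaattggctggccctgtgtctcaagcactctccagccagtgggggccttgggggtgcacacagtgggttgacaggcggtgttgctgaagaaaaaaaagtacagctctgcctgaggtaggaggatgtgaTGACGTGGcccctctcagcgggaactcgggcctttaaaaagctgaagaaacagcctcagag
Jchain: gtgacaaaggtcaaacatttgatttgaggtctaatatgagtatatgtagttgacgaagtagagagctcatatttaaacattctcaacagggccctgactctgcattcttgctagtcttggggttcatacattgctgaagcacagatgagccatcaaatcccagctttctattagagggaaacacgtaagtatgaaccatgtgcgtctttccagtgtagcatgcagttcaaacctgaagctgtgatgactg
The Derl3 match, on the opposite strand, runs from 156 to 138 bases before the start, and the Pou2af1 match from 61 to 54. Derl3 and Pou2af1 differed by -0.43 and -1.28 with 9 arrays, and Jchain by -0.85.

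Other genes of the pathway were counted on 4 lists, with 1 probe set for each gene, that of largest mean. Of their 61 tested genes 2 were called with 9 arrays, 1 lower and 1 higher, where 0.163% of all tested probe sets were called lower and 0.0962% higher. This count ran from 0 to 4 when 1 more mouse was taken out (0 without control mouse 2, 3 or 4 or stressed mouse 1, 3, 4 or 5, 1 without stressed mouse 2 and 4 without control mouse 5). Of 10 tested genes of plasma cell identity and survival, 0 fell and 1 rose in limma with 9 arrays. The 1 that rose was Bcl2, a survival factor of many cell types, at 7.35, 6.61, 6.66, 6.76 and 6.95 in controls and 7.33, 7.14, 7.38, 7.27 and 7.32 in stressed mice, by 0.54 ± 0.09 (SE, limma adjusted p = 0.0415). With 10 arrays Bcl2 differed by 0.42 ± 0.13 (SE, adjusted p = 0.5103), and control mouse 1 was as high as the stressed mice. Eaf2 and Slamf7, both expressed in plasma cells, differed by -1.08 ± 0.25 (SE, adjusted p = 0.0945) and -0.53 ± 0.15 (SE, adjusted p = 0.147) with 9 arrays. The stressed mean of Slamf7 (4.13) was under the filter floor. The list had no common direction, with 5 genes lower and 5 higher with 9 arrays, and 4 and 6 with 10 arrays. At an unadjusted limma p under 0.05 with 9 arrays 3 were lower and 3 higher, against 5.77% and 10.4% of all tested probe sets.

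Of 26 tested genes of the secretory pathway 0 passed in either comparison, and 22 were lower in mean with 9 arrays and 18 with 10 arrays. Of all 45037 probe sets, those under the filter floor included, 51.7% and 53.1% were lower. The share over tested probe sets alone was not computed. The median difference of this list with 9 arrays was -0.10, where that over all tested probe sets was 0.02. Ssr4, a translocon subunit, differed by -0.30 ± 0.08 (SE, limma adjusted p = 0.124), and the chaperone-related Creld2 and Manf by -0.35 ± 0.13 (SE) and -0.30 ± 0.12 (SE). Epithelial secretory cells express these genes too.

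Of 18 tested genes of IgA induction and homing 1 fell with 9 arrays and 0 with 10 arrays. It was Nos2, the inducible nitric oxide synthase, which is also made by the epithelium. Nos2 was at 4.39 in control mouse 1, 5.15, 5.60, 5.58 and 5.11 in controls 2 to 5, and 4.69, 4.60, 4.82, 4.61 and 4.71 in stressed mice. With 9 arrays the drop was -0.67 ± 0.12 (SE), at an adjusted p of 0.0483 in limma. Ccl28, the epithelial chemokine that draws IgA plasma cells, was at 8.53, 9.07, 8.95, 8.96 and 8.40 in controls and 8.23, 8.46, 8.15, 8.08 and 7.84 in stressed mice. Only stressed mouse 2 reached the controls, and here control mouse 1 lay with the other controls. Ccl28 differed by -0.63 ± 0.15 (SE, limma adjusted p = 0.397) with 10 arrays and -0.69 ± 0.15 (SE, adjusted p = 0.0865) with 9 arrays. Its receptor Ccr10 was at 4.44, 5.94, 5.60, 5.49 and 5.28 in controls and 4.98, 4.86, 5.12, 4.69 and 4.90 in stressed mice, a difference of -0.67 ± 0.13 (SE, adjusted p = 0.0622) with 9 arrays.

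Of 7 tested receptors for antibodies 0 passed in either comparison. Fcer1g, the signalling chain shared by Fc receptors, differed by -0.43 ± 0.14 (SE, limma adjusted p = 0.202) with 9 arrays, Fcgr1 by -0.27 ± 0.11 (SE) and Fcgr2b by -0.21 ± 0.09 (SE).

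Markers of other cells were measured in the same mice, and their part in the results was not tested beyond the values given. The mean of 10 tested B cell genes, of 16 on the array, was 4.65 in control mouse 1, 4.86 to 6.08 in controls 2 to 5 and 4.60 to 4.85 in stressed mice, and 6 B cell genes, Pax5 among them, were below the floor. In control mouse 5 the B cell genes Ms4a1, Cd79b and Fcmr were at 6.81, 7.14 and 6.58. The mean of 8 tested T cell genes was 5.199 in control mouse 1, 5.29 to 5.69 in controls 2 to 5 and 5.08 to 5.19 in stressed mice. Stressed means of the B cell genes Cd79a (4.11), Cd37 (4.07) and Fcmr (4.05) were under the floor of 4.15. So were those of the T cell genes Cd247 (4.02) and Cd5 (4.03). These genes passed the filter only through the controls, which tilts both list means toward lower values in stressed mice. The mean of 8 epithelial genes was 11.90 in control mouse 1, and 12.23 to 12.28 in controls 2 to 5 and 12.25 to 12.30 in stressed mice. With the B cell mean as a covariate the median member difference with 9 arrays was -0.61, and 0 of 47 members passed. Igkv6-14 then differed by -3.73 with a limma adjusted p of 0.0981.

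The mean of 4 tested large intestine genes was 9.93 in control mouse 1 and 9.26 in stressed mouse 4, and 4.97 to 5.92 in the other mice. Control mouse 1 was the lowest of the 10 mice in 28 of 66 members. The mean of the immunoglobulin probe sets in stressed mouse 4, at 7.50, was within the 7.29 to 7.59 of the other stressed mice. Without stressed mouse 4 as well as control mouse 1, 0 of 47 members passed and the median member difference was -0.58. With the ratio of 3' to 5' control probe sets as a covariate 0 passed and the median was -0.59.

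**Figure D4:**
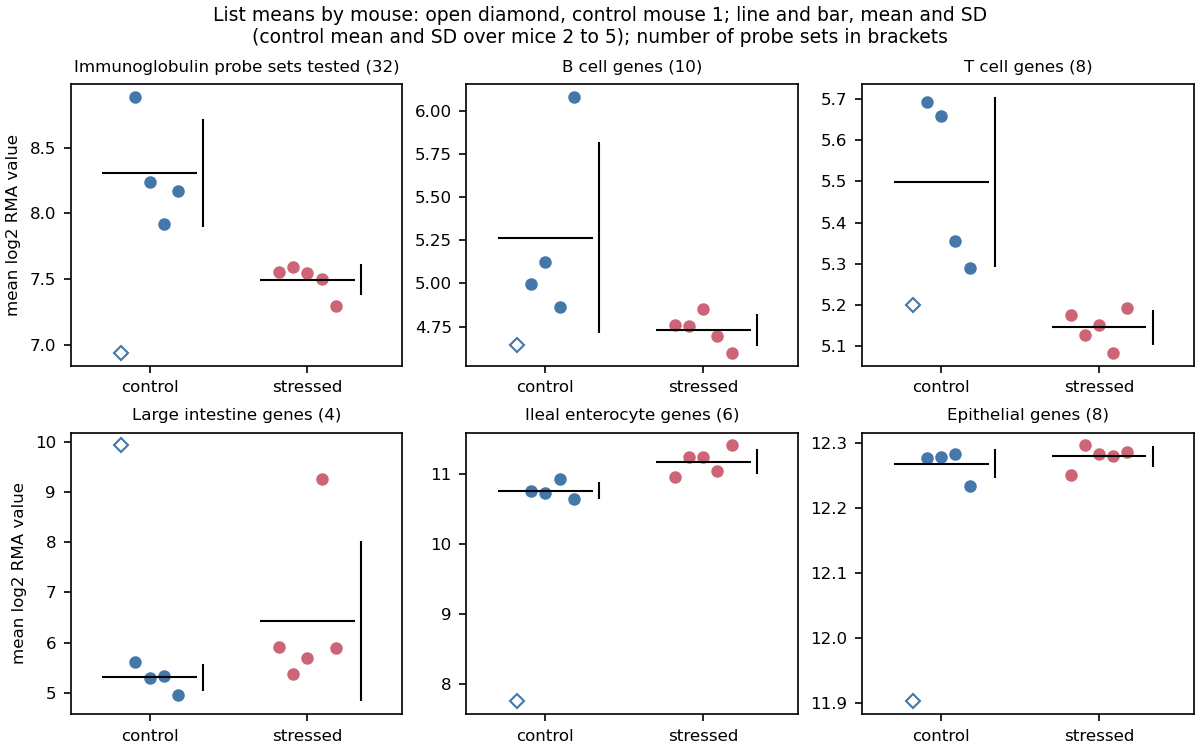
Each panel gives the mean log2 RMA value of a gene list in each mouse for control (blue) and stressed (red) mice; the open diamond is control mouse 1, lines are means and bars SDs, for controls over mice 2 to 5. Immunoglobulin, B cell and T cell means of stressed mice lie below those of controls 2 to 5, for B cells only just (4.85 against 4.86). Some B and T cell genes passed the filter on low values only through the controls. The large intestine mean is high in control mouse 1 (9.93) and stressed mouse 4 (9.26).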

How the data were processed

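The deposited values are log2 signals of probe sets, 1 column for each of 10 arrays, and RMA produced them per the submitters' processing notes. Its software is not given in the sources used here. Base 2 was read from their range (1.22 to 14.37). RMA sets all arrays to a common distribution, so changes of total RNA cannot be seen, and no depth applies: the number of arrays limits the precision. Groups came from the sample titles. Gene symbols came from the platform annotation.

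After 64 control probe sets, the lowest 40 percent of probe sets by mean over 10 arrays were left out (floor 4.15), which left 27022. Each was fitted with limma 3.58.1 in R 4.3.3 (lmFit, eBayes), with Benjamini-Hochberg adjustment over all of them and a threshold of 0.05. The fit was checked on simulated data. The p-values weigh a group difference against the spread between mice of the same group. They treat the mice as independent, which the labels do not settle, since they do not give cages, days or litters. Members, gene lists and tests were chosen with earlier results of these data known. Named were all tested helper and constant-symbol probe sets, and the 8 variable or several-symbol probe sets of smallest p in each comparison. Up to 3 genes per pathway list were named as well. Probe sets described outside this rule include 1447918_x_at and 1430523_s_at of Iglv1 and 1452536_s_at of Igkv9-120. Patterns by mouse were picked after values were seen. Same-numbered mice of the 2 groups deviated together at correlations from -0.27 to 0.23, and the main fits did not pair them. These correlations cannot decide whether such mice shared a cage, day or litter, which the labels do not say. Alternatives changed the filter, the features tested, the variance model, array weights, centring, the replicate block, covariates and the mice.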

Additional observations from a re-analysis of the deposited data

Results flagged for a closer look

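The 41 named probe sets were each looked at in 2 groups of 5, which made 82 groups. Chance gives about 1 in 20 groups if they are independent. Several probe sets read the same genes and some were named for a small p, so that rate is a rough guide only. In 11 of the 82 groups a mouse had a gap to the next above Dixon's critical value for 5 samples. Control mouse 1 was set apart, always low, in 6 of them: Igha at 12.63, 12.20 and 11.77 on 1421653_a_at, 1425763_x_at and 1429381_x_at, Jchain at 10.60, and the kappa probe sets 1427455_x_at at 11.25 and 1427660_x_at at 11.96. The nearest other control was at 13.68, 13.50 and 13.25 for Igha, 12.19 for Jchain, and 12.82 and 12.92 for the kappa probe sets. Control mouse 5 was high for Ighg3 (1427503_at, 6.34). Stressed mouse 1 was high for Ighm (1427870_x_at, 8.98) and low for Igkv14-111 (3.99). Stressed mouse 2 was low for 1451965_at of the Igkv6-14 group (5.12), and stressed mouse 3 was high for Mzb1 (7.39).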

How the results depend on the processing

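With 10 arrays, array weights called 2 members and 31 probe sets in all, centring called 4 probe sets, and the other settings on the same 10 mice called 0 members. With 9 arrays the main counts were 3 members and 70 probe sets (44 lower, 62.9%). These became 7 and 109 with 1 probe set per gene (22 member genes tested among 13666), 10 and 166 with array medians centred (81.3% lower), 10 and 112 with trend and robust eBayes, and 0 and 0 with the ratio of 3' to 5' probe sets or the B cell mean as a covariate. All probe sets called were 45 with no filter on low values. The pathway count of 2 became 0 with either covariate, 1 with the lowest 60 percent left out and 0 with no filter. The cause of these shifts was not tested. Leaving out 1 mouse at a time gave 0 to 3 members, 0 to 70 probe sets and 0 to 2 pathway genes with 10 arrays, and 0 to 3, 3 to 136 and 0 to 4 with 9 arrays. The replicate block treats same-numbered mice as pairs, which the labels neither state nor exclude. With it, 0 members and 1 probe set were called with 10 arrays. With 9 arrays it called 7 members, 106 probe sets and 1 pathway gene.

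The median member difference stayed below 0 in every alternative. Signs turned for 10 named probe sets with 10 arrays and 4 with 9 arrays, none of them called. With 10 arrays and the B cell covariate, Igha was 0.0412, 0.0315 and 0.0156 (1421653_a_at, 1425763_x_at, 1429381_x_at), Ighm 0.0980 and 0.2039 (1427329_a_at, 1427351_s_at) and the Igkc probe sets 0.0198 and 0.0111 (1427660_x_at, 1452417_x_at). These Ighm probe sets were at -0.39 and -0.27 without the covariate, and with 9 arrays went from -0.57 and -0.47 to 0.0289 and 0.0713. Sdc1 (1415944_at) was -0.0146 with the ratio, -0.0897 with the B cell mean, -0.0333 centred and -0.0430 to 0.0520 without 1 mouse, and with 9 arrays -0.0331 with the B cell mean and -0.0067 centred. Irf4 (1421174_at) was -0.0078 with array weights and, with 9 arrays, -0.0260, -0.0433, -0.0379, -0.0275 and -0.0154 with the ratio, B cell mean, centring, weights and block, and -0.0340 to 0.0612 without 1 mouse. Ighm (1425324_x_at) was -0.46 with 10 arrays and ran from -1.0026 to 0.0788 without 1 mouse, the highest being without control mouse 2. Adding Igk and Igk-V21, chosen after seeing the data, gave 4 members called with 9 arrays. The number of arrays and the signal above the floor limit what could be called.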
